A study of Mus musculus with 24 samples.

Results

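The comparison described here is that of wild-type (WT) mouse cortical neurons exposed to BDNF for 24 h with untreated WT control neurons. It holds 8 of the 24 samples of the series, chosen by their labels: 4 labelled WT BDNF 24 h and 4 labelled WT control. Neurons were dissociated from the cortex of embryos at E16.5 and kept in culture for 12 days, and polyadenylated RNA was sequenced with a stranded kit. The other 16 samples are WT neurons after 30 min of BDNF and neurons lacking the histone variant H2BE, with an mCherry reporter knocked in, under the same 3 conditions. WT neurons of both groups carried no engineered allele that the labels name. Neither the dose of BDNF nor any vehicle for the control cultures is stated in the labels used here.

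Brain-derived neurotrophic factor (BDNF) is a secreted protein that cortical neurons make and respond to. It binds the receptor tyrosine kinase TrkB, the product of Ntrk2, and TrkB signals through the MAP kinase, PI3 kinase and phospholipase C pathways. The signal first induces genes of transcription factors such as AP-1 (dimers of Fos and Jun proteins) and later changes protein synthesis, growth of neurites and synapses.

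Each sample's description carries a culture code (WT2C, WT2D, WT2E or WT2F), and 1 control and 1 BDNF 24 h library share each code. The codes are called cultures 1 to 4 here, and values of single libraries are given in that order. Libraries of the same culture deviated from their group means together (correlations of 0.243 to 0.506 across genes), while libraries of different cultures did not (-0.315 to -0.013). Deviations from a group mean cancel within the group, so the second range is not independent of the first. Each difference was estimated within cultures, following the shared codes. Levels are CPM (counts divided by the normalised library size, on the usual CPM scale), and a log2 fold change is BDNF 24 h over control, with its standard error (SE).

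The BDNF 24 h libraries held 35342145 to 43651335 counts and the control libraries 32452761 to 44903976. Transcripts of the mitochondrial genome took 4.18% to 4.74% of the counts at 24 h and 5.11% to 5.46% in control, so the groups did not overlap in this share. Summed markers of glutamatergic cortical neurons lay at 4360 to 4670 CPM at 24 h and 4940 to 5240 CPM in control. All 11 were detected, which fits the label of the cultures as cortical neurons. Most of this sum came from Map2 (2570 to 2810 CPM at 24 h, 2080 to 2230 in control) and Tubb3 (920 to 1040 and 1580 to 1640). Neurons in general express both genes, so the sum does not measure glutamatergic neurons alone. GABAergic neuron markers summed to 1160 to 2880 CPM at 24 h and 1090 to 2250 CPM in control, so the cultures differed in their share of interneuron RNA under both conditions. Astrocyte markers summed to 512 to 592 CPM at 24 h and 504 to 667 CPM in control, mostly by Slc1a2, which did not pass the test (0.03). Of the 12 astrocyte markers tested 6 fell (Gfap, Aqp4, Slc1a3, Aldoc, Fgfr3 and Acsbg1, by -0.80 to -0.45 on the log2 scale) and Sox9 rose (0.49), with a median of -0.45. In bulk samples such as these, fewer cells of a type and less RNA per cell cannot be told apart.

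Of 15306 genes tested, 7216 (47.1%) passed an adjusted p of 0.05 (quasi-likelihood test of edgeR, Benjamini-Hochberg adjustment over all genes tested). Of these, 3478 (22.7% of the genes tested) rose and 3738 (24.4%) fell at 24 h of BDNF. Most of the changes were small: 4732 of the called genes (65.6%) differed by less than 1.5-fold. At least 2-fold changes were found for 1131 genes (7.39%), of which 610 (3.99%) rose and 521 (3.4%) fell. The largest changes were mostly rises, with 175 genes at least 4-fold higher and 65 at least 4-fold lower, and 69 against 8 at 8-fold. All 4 cultures moved in the same direction for 6952 of the called genes (96.3%). The calls were made on these same cultures, so the selection itself favours such agreement. The 4 libraries of one group lay beyond all 4 of the other for 5032 of all genes tested (32.9%). The 2-fold risers had median log2 differences of 1.45 to 1.53 in the single cultures and the 2-fold fallers -1.41 to -1.24. These genes, too, were selected on the same 4 cultures. Numbering in the descriptions divides the cultures into 2 sets, and the first set alone gave 5828 changed genes and the second set alone 4178. The 4 samples of a group are biological replicates according to the study's design text.

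Protein-coding genes made up 13651 of the genes tested, and 50.3% of them changed, with 3370 higher and 3497 lower. Of 988 long noncoding RNA genes tested, 74 rose and 179 fell (25.6% changed in either direction), their median log2 fold change was -0.21 against -0.02 for all genes tested, and 32 rose and 64 fell at least 2-fold.

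**Figure D1:**
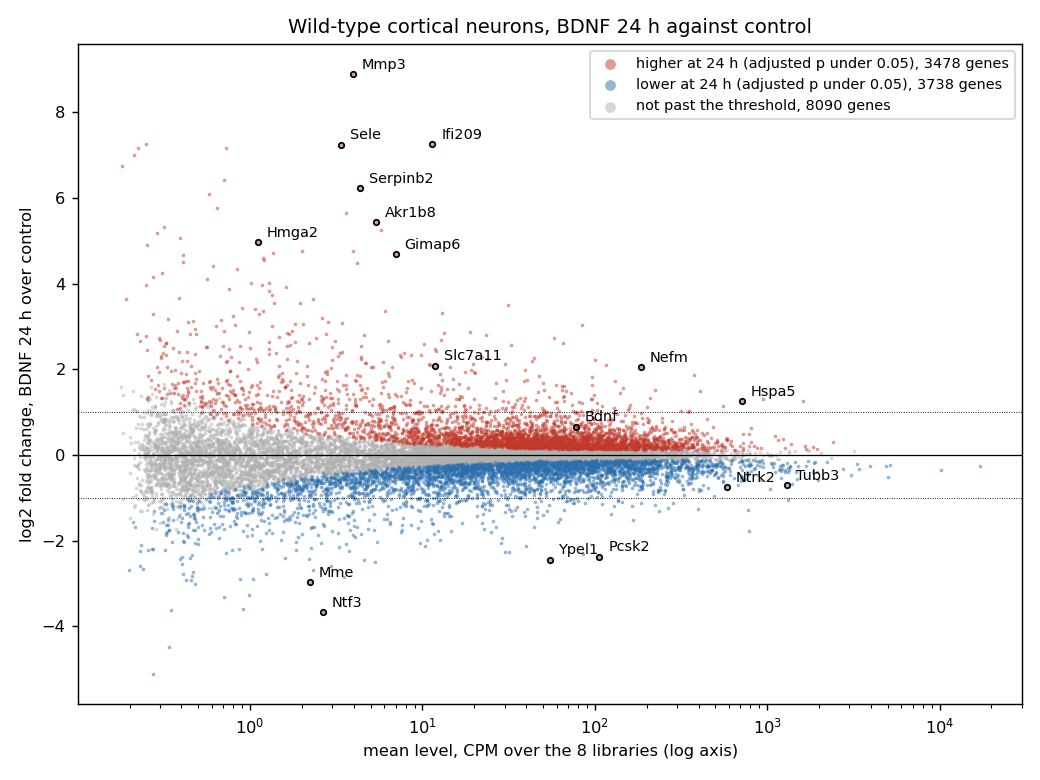
Each point is 1 of the 15306 genes tested, with its mean level over the 8 libraries (CPM, log axis) against its log2 fold change, BDNF 24 h over control; dotted lines mark 2-fold. Rises reach further from 0 than falls, with Mmp3 at 8.89 and Ntf3 at -3.67, and most called genes lie between the dotted lines.

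The 15 largest rises were in genes that control neurons barely expressed. Mmp3, which encodes the secreted matrix metalloproteinase stromelysin, stood at 4.95, 10.8, 13.7 and 2.17 CPM in the BDNF 24 h libraries, against 0, 0.0454, 0 and 0 CPM in the control libraries. Its 4 control libraries held 2 counts in all and its 24 h libraries 1216, a ratio of 580 (95% exact interval 160 to 4800, counting error only). The groups were far apart, although the 24 h libraries themselves spanned a wide range, lowest in culture 4 and highest in culture 3. Sele encodes E-selectin, an adhesion receptor best known from inflamed endothelium. It stood at 5.14, 9.13, 10 and 2.40 CPM at 24 h, against 0.125, 0.0454, 0 and 0 CPM in control, and its summed counts gave a ratio of 164 (75 to 447). Endothelial markers summed to 1.59 to 2.67 CPM at 24 h and 1.82 to 2.56 CPM in control, Tie1 and Ly6c1 were at 0 in all 8 libraries, and 0 of the 3 markers tested (Pecam1, Flt1, Esam) passed the test.

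Serpinb2, the gene of a plasminogen activator inhibitor, stood at 10.6, 7.85, 7.14 and 8.72 CPM at 24 h, against 0.0626, 0.068, 0 and 0.292 CPM in control (log2 fold change 6.23 ± 0.36, adjusted p = 3.65e-07). Akr1b8, an aldo-keto reductase gene, was the most even among cultures, at 11.5, 9.94, 10.1 and 10.5 CPM at 24 h, against 0.251, 0.272, 0.362 and 0.0975 CPM in control (5.43 ± 0.23). Ifi209, of the interferon-inducible p200 family, stood at 14.8, 29.0, 31.0 and 15.7 CPM at 24 h, against 0.125, 0.182, 0.241 and 0.0488 CPM in control (7.25 ± 0.17). Tm4sf1 (5.66 ± 0.32), the galanin receptor gene Galr1 (5.25 ± 0.31), the cyclooxygenase gene Ptgs2 (4.76 ± 0.35), the integrin subunit gene Itga2 (4.72 ± 0.38), the immune GTPase gene Gimap6 (4.68 ± 0.18) and the epithelial membrane protein gene Emp1 (4.48 ± 0.28) rose in the same range. Akr1b8 has close relatives in its family, so the assignment of shared reads is uncertain. The set was completed by the chromatin protein gene Hmga2 (4.97 ± 0.46), the cornified envelope gene Lce1g (4.75 ± 0.56), the secreted chemokine-like Fam19a4 (4.60 ± 0.47) and the protease inhibitor gene Spink2 (4.54 ± 0.35). Among the 4 BDNF 24 h libraries, that of culture 4 was the lowest for 10 of the 15 genes and that of culture 3 the highest for 10 of them.

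Promoter windows from RefSeq (GRCm38.p6, 250 bases before to 50 after the annotated start) were searched on both strands for 7 motifs. An AP-1 motif, TGANTCA, was found for 74 of 459 genes that rose at least 2-fold (16.1%), 29 of 370 that fell at least 2-fold (7.84%) and 678 of all 11290 tested genes with a window (6.01%). The CArG box, bound by serum response factor, was found for 4.58% of the risers, 2.7% of the fallers and 1.67% of all. The shares of the CREB motif TGACGTCA (3.49%, 1.62% and 3.61%), the EGR motif GCGNGGGCG (10.9%, 11.4% and 12.5%) and the NRF2 motif TGACNNNGC (17.2%, 11.9% and 16.6%) were within 2 percentage points of all genes among the risers. FoxO (GTAAACA) was found for 5.01%, 4.59% and 3.09%, while SREBP (TCACNCCAC) was found for 2.18% of the risers, 1.89% of the fallers and 156 of the 11290 genes. Some matches of the AP-1, CREB and NRF2 motifs overlap, since they share the letters TGA. A match is a run of letters, not a measured binding site.

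Of the 15 largest rises 13 had a window, and 5 of these held an AP-1 match: Mmp3, Ifi209, Sele, Serpinb2 and Emp1. Of the 15 largest falls 12 had a window and 1 held a match, Mme. The 250 bases before the annotated start are shown for 4 of the risers, because their AP-1 match lies within 145 bases of the start. The letters of the match are in capitals, it begins 46 bases before the start in Mmp3 (chr9:7445572-7445821, plus strand), 73 in Sele (chr1:164047984-164048233, plus strand) and 94 before the first of the 2 annotated starts of Serpinb2 (chr1:107511173-107511422, plus strand), and the 2 matches in Emp1 (chr6:135362681-135362930, plus strand) begin 145 and 25 bases before it.
Mmp3: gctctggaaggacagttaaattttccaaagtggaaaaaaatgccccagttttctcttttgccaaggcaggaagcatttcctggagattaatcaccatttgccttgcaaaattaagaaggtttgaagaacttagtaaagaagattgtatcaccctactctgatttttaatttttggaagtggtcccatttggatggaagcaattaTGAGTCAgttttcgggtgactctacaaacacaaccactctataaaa
Sele: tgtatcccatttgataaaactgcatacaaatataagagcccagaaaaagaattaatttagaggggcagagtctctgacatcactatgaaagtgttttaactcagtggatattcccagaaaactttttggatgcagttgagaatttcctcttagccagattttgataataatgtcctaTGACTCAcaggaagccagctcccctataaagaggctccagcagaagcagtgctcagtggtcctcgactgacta
Serpinb2: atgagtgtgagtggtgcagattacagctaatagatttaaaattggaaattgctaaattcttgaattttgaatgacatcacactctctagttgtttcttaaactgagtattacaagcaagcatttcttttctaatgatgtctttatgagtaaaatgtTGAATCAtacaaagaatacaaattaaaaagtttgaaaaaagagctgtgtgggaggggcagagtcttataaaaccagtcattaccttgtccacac
Emp1: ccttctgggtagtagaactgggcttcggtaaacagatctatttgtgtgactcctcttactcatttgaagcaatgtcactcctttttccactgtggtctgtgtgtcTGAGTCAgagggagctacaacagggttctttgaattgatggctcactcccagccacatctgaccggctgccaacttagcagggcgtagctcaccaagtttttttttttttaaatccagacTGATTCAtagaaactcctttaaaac

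**Figure D2:**
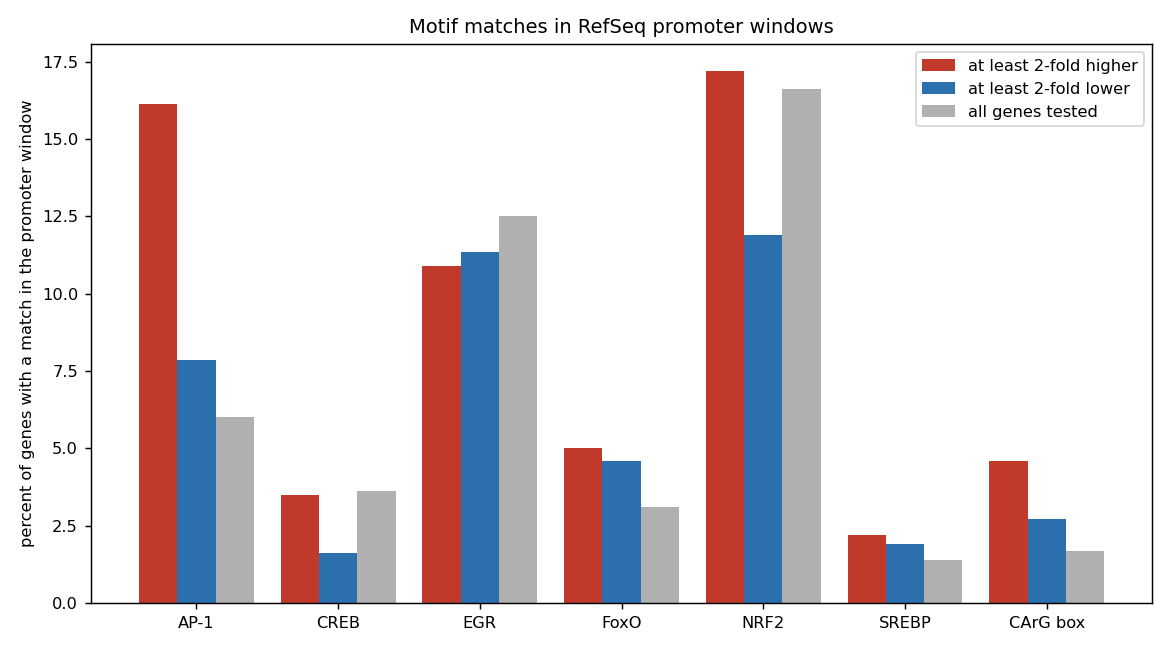
Bars give the percent of genes with at least 1 match of a motif in the RefSeq promoter window, for genes at least 2-fold higher at 24 h (459), at least 2-fold lower (370) and all tested genes with a window (11290). The AP-1 bar stands at 16.1% for the risers, against 7.84% for the fallers and 6.01% for all genes.

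The 15 largest falls included genes of secreted, membrane and intracellular proteins. Ntf3, the gene of a neurotrophin related to BDNF, stood at 0.467, 0.262, 0.569 and 0.249 CPM at 24 h, against 6.45, 4.63, 4.34 and 4.14 CPM in control, a log2 fold change of -3.67 ± 0.24 (adjusted p = 8.49e-07). Pcsk2, a convertase that cuts prohormones in secretory granules, had the largest fall in absolute level among the 15, at 31.6, 31.1, 34.1 and 39.5 CPM at 24 h, against 166, 167, 219 and 160 CPM in control (-2.38 ± 0.09). Vcan, which encodes the matrix proteoglycan versican, stood at 29.2, 28.9, 31.4 and 24.7 CPM at 24 h, against 143, 163, 145 and 117 CPM in control (-2.31 ± 0.06). In each of these genes the highest 24 h library lay below the lowest control library by more than 3-fold. Ypel1 fell as evenly, to 17.2 ± 3.38 CPM at 24 h, against 92.7 ± 2.12 CPM in control (SD, n = 4 each, -2.44 ± 0.09). It overlaps Ppil2 on the opposite strand, and since the labels do not state whether counting used strand, reads of the pair cannot be told apart with certainty.

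The other large falls were in Mme (-2.97 ± 0.29), the peptide-degrading enzyme neprilysin, Fbxo32 (-2.91 ± 0.41), a ubiquitin ligase subunit known from muscle wasting, and Il4ra (-2.84 ± 0.27), a cytokine receptor chain. The collagen gene Col24a1 (-2.79 ± 0.34), the adenosine deaminase gene Ada (-2.68 ± 0.23), the retinoic acid-forming Aldh1a3 (-2.49 ± 0.28), the growth factor gene Vegfd (-2.42 ± 0.34), the matrix gene Emilin2 (-2.40 ± 0.35) and the presynaptic glutamate receptor gene Grm2 (-2.27 ± 0.14) fell as well. Synpo2l (-2.60 ± 0.25) and Rgs9bp (-2.45 ± 0.19) completed the set. In 10 of the 15 genes the control library of culture 4 was the lowest of its group.

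**Figure D3:**
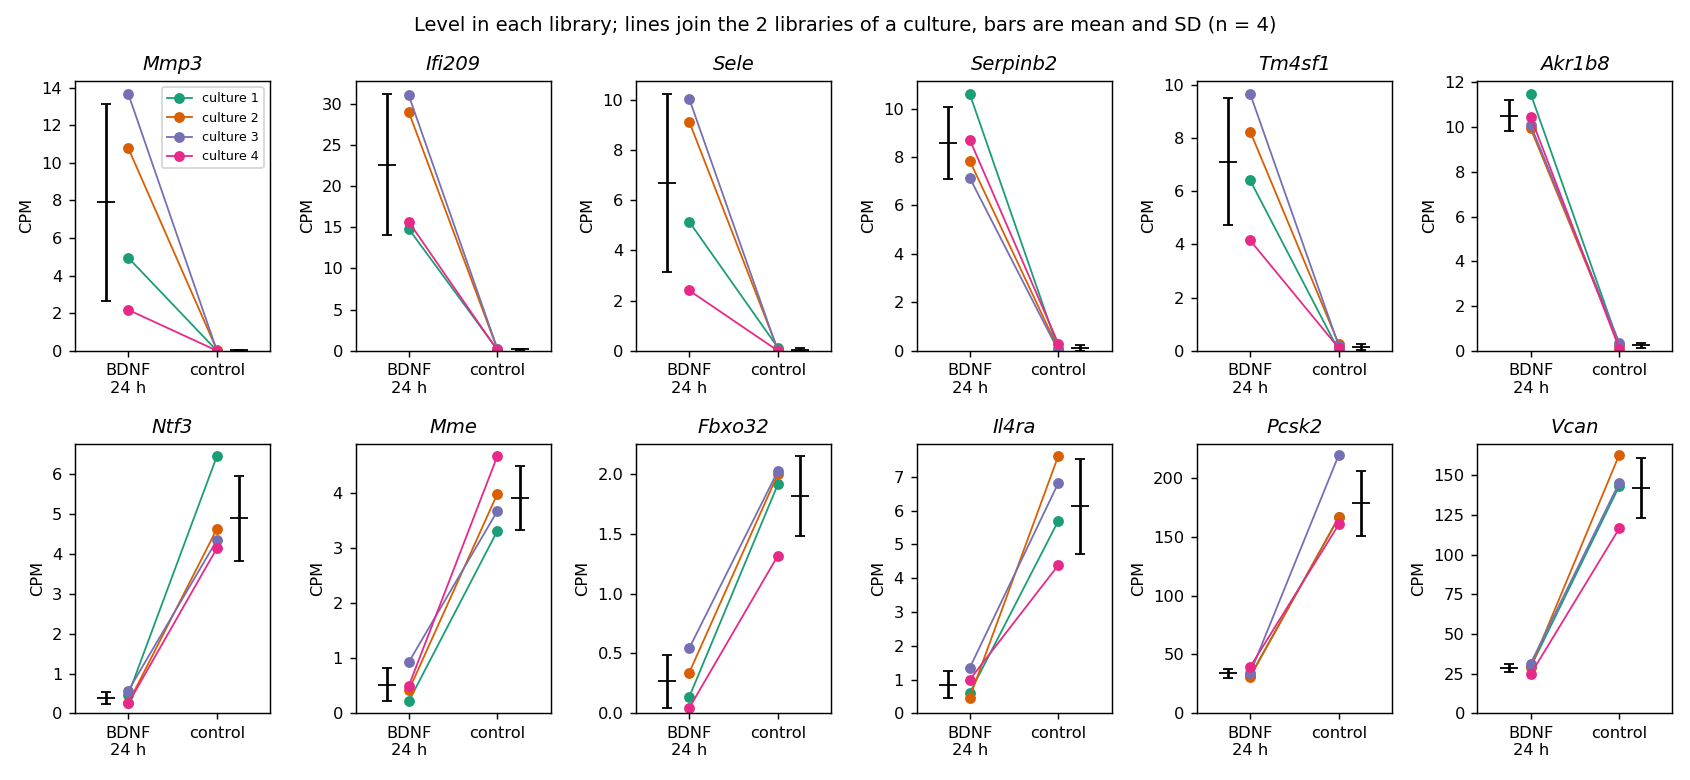
CPM of 6 of the largest rises (top) and 6 of the largest falls (bottom) in each library, BDNF 24 h at the left and control at the right of each panel; lines join the libraries of a culture and bars are mean ± SD (n = 4). The 12 genes were selected on the condition that their groups do not overlap. Mmp3 lay at 2.17 to 13.7 CPM at 24 h and Pcsk2 at 160 to 219 CPM in control.

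The functional groups of all genes were described with 49 lists that together held 2258 tested genes, of which 765 rose and 554 fell (58.4% changed, against 47.1% of all genes tested). At least 2-fold changes were found for 209 of them (9.3%), against 7.39% of all. A list's counts are set beside the shares of all genes tested, 22.7% higher and 24.4% lower, and its median log2 fold change beside that of all genes, -0.02. These are descriptions of the lists and no test of them.

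**Figure D4:**
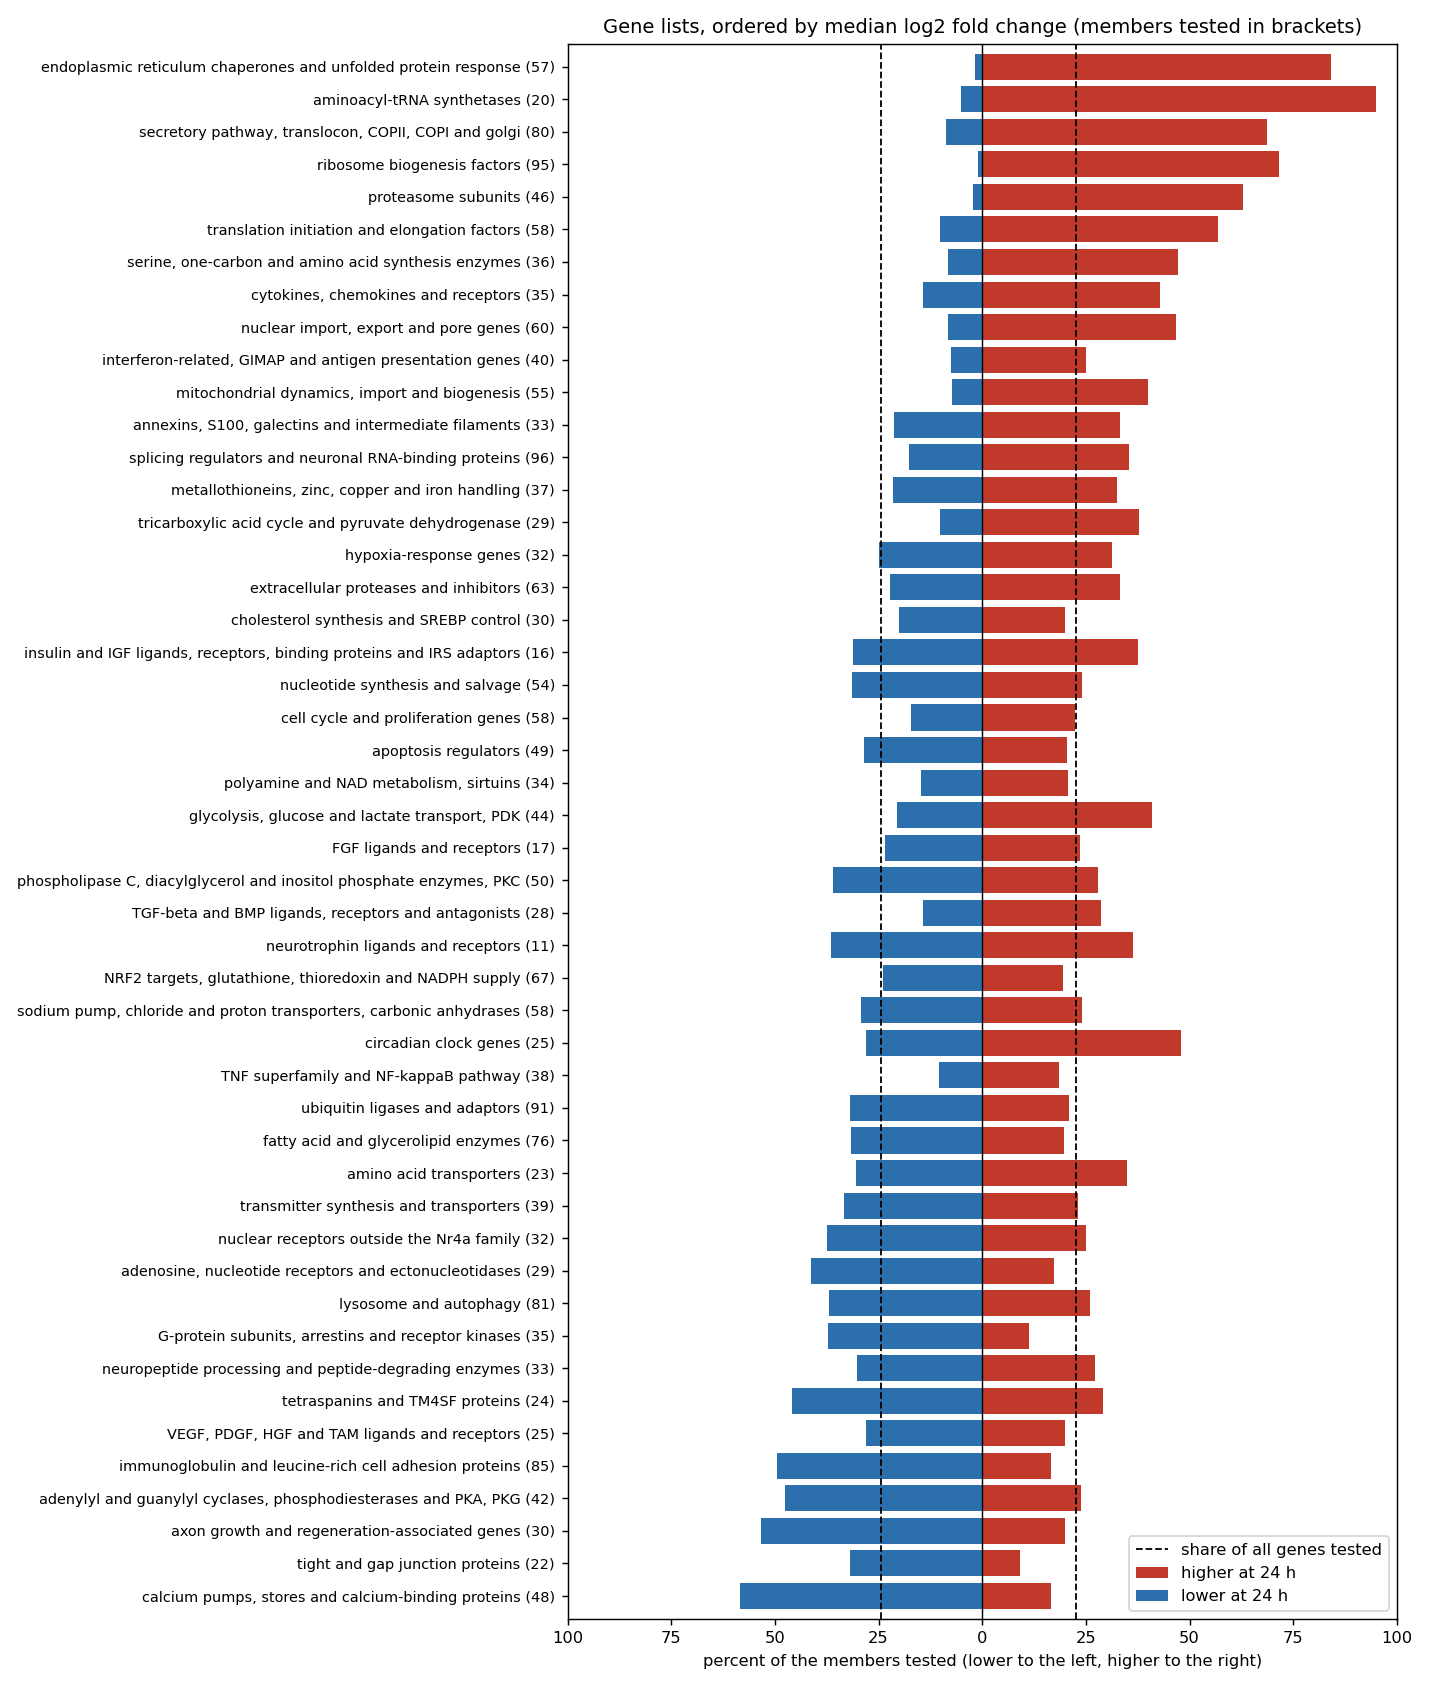
Percent of the tested members of each of 48 of the gene lists that rose (right) or fell (left) at 24 h, ordered by median log2 fold change; dashed lines mark the shares of all genes tested, 22.7% higher and 24.4% lower. The lists at the top serve protein folding, secretion, translation and protein turnover, and those at the bottom calcium handling, junctions, axon growth, second messengers and adhesion.

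Genes that neurons use to make proteins rose together by modest amounts. Aminoacyl-tRNA synthetases, the enzymes that load amino acids on transfer RNAs, all passed the test: 19 of 20 rose (95%), 1 fell, and the median was 0.38. The list's median difference was 0.35 to 0.45 in the single cultures. Tars, the threonine enzyme, stood at 134, 129, 124 and 120 CPM at 24 h, against 61.2, 60.2, 65.2 and 65.7 CPM in control (1.01 ± 0.06, adjusted p = 3.46e-07). Rars (0.76 ± 0.05), the arginine enzyme, and Eprs (0.73 ± 0.04), which loads glutamate and proline, followed. The exception was Mars, the methionine enzyme, at 140, 123, 129 and 114 CPM at 24 h, against 145, 136, 150 and 122 CPM in control (-0.13 ± 0.05, adjusted p = 0.0447), where the groups overlapped.

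Enzymes of serine, one-carbon and amino acid synthesis rose in 17 of 36 cases (47.2%) and fell in 3. The steps from glycolysis to serine and on to one-carbon units led the list. Phgdh, the first enzyme of serine synthesis, stood at 53.4, 45.5, 39.2 and 44.2 CPM at 24 h, against 19, 22.9, 21.6 and 20.4 CPM in control (1.11 ± 0.09, adjusted p = 4.23e-06). The next enzymes, Psat1 (1.09 ± 0.06) and Psph (1.12 ± 0.09), and the mitochondrial Shmt2 (0.97 ± 0.09) and Mthfd2 (0.74) rose by similar amounts. Psph overlaps Cct6a on the opposite strand. Asns, asparagine synthetase, rose to 438 ± 34.3 CPM at 24 h, against 293 ± 46.2 CPM in control (0.59 ± 0.06). The transsulfuration genes divided: Cth rose (1 ± 0.13), while Cbs fell to 1.31 ± 0.49 CPM at 24 h, against 3.30 ± 0.39 CPM in control (-1.37 ± 0.27, adjusted p = 0.0018).

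Amino acid transporters were not one-sided, with 8 of 23 higher (34.8%) and 7 lower (30.4%). The cystine carrier gene Slc7a11 rose most, at 21, 17.2, 18.5 and 19.8 CPM at 24 h, against 3.98, 4.45, 5.79 and 4.00 CPM in control (2.08 ± 0.13). The glutamine carrier Slc1a5 (1.29 ± 0.12) and the large neutral amino acid carrier Slc7a5 (0.58 ± 0.05) with its partner Slc3a2 (0.34 ± 0.06) rose. The cationic amino acid carrier Slc7a2 fell (-1.03 ± 0.22).

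The transcription factor ATF4 acts on amino acid and stress genes through an element whose core is TGATGCAA. This motif, chosen after the list counts were seen, was found in the windows of 4 of 12 aminoacyl-tRNA synthetase genes (33.3%), Aars, Iars, Tars and Yars, against 79 of 11290 tested genes (0.70%). All 4 of these genes rose, as did 19 of the 20 genes of the whole list (95%). It was also found for 3 of 18 amino acid transporters, of which Slc7a11 rose and Slc1a4 (-0.16) fell while Slc7a7 (-0.44) did not pass the test. Among 29 synthesis enzymes it was found for Got1, which rose (0.38), and Pycr1 (-0.14), which did not pass. The element was also found outside these lists, as for Chac1 (0.96), Herpud1 (0.71) and Nupr1 (-0.06). The element is shown for 4 risers with 6 bases on either side and its core in capitals, read in the direction of the motif: Aars at chr8:111033724-111033743 (minus strand), Tars at chr15:11399660-11399679 (plus strand), the second of 2 elements of Slc7a11 at chr3:50443647-50443666 (plus strand), and Chac1, a glutathione-degrading enzyme of the stress response, at chr2:119351043-119351062 (minus strand).
Aars: ctcggcTGATGCAAtgctca
Tars: accagcTGATGCAAcgggac
Slc7a11: gcatgaTGATGCAAattctc
Chac1: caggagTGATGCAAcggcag

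Translation factors followed, with 33 of 58 higher (56.9%), 6 lower and a median of 0.22. Eif4ebp1, an inhibitor of cap-dependent initiation, rose most, to 25.8 ± 1.33 CPM at 24 h, against 12.0 ± 2.46 CPM in control (1.13 ± 0.10). Eef2k, the kinase that slows elongation, fell to 35.7 ± 2.72 CPM at 24 h, against 58.2 ± 3.64 CPM in control (-0.71 ± 0.06). The genes with the largest changes in this list are 2 regulators, an initiation inhibitor that rose and an elongation inhibitor that fell. Ribosome biogenesis factors, which process ribosomal RNA and assemble subunits in the nucleolus, rose in 68 of 95 cases (71.6%) and fell in 1. None changed 2-fold, and the median was 0.27, with 0.26 to 0.33 in the single cultures. Ltv1, a factor of small subunit maturation, stood at 29.4, 31.0, 27.2 and 24.3 CPM at 24 h, against 17.4, 15, 16 and 13 CPM in control (0.87 ± 0.08). The nucleolar helicase gene Ddx21 (0.79 ± 0.06) and the RNA polymerase I subunit gene Polr1e (0.79 ± 0.09, overlapping Fbxo10 on the opposite strand) rose beside it.

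Chaperones of the endoplasmic reticulum (ER) and the unfolded protein response, which raises folding capacity when secretory proteins accumulate, showed the largest list median, 0.53. Of 57 genes 48 rose (84.2%), 1 fell and 11 rose at least 2-fold (19.3%, against 3.99% of all genes). The list's median was 0.53 to 0.59 in the single cultures. Hspa5, the chaperone BiP, stood at 985, 1122, 1040 and 862 CPM at 24 h, against 404, 451, 453 and 368 CPM in control (1.26 ± 0.04, adjusted p = 1.23e-08), with no overlap. Hsp90b1, another luminal chaperone, rose to 572 ± 36.3 CPM at 24 h, against 318 ± 18.3 CPM in control (0.85 ± 0.04). The folding genes Sdf2l1 (1.54 ± 0.10), Pdia5 (1.55 ± 0.14) and Creld2 (1.17 ± 0.09) rose further.

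The sensors and transcription factors of the same response rose too. These were the sensor genes Atf6 (1.02 ± 0.05), Ern1 (1.07) and Eif2ak3 (0.83), and the transcription factor genes Xbp1 (0.58 ± 0.05), Ddit3 (1.05 ± 0.06) and Creb3l2. Creb3l2 changed most in the list, at 14.5, 17.1, 17.8 and 7.79 CPM at 24 h, against 1.85 to 3.59 CPM in control (2.32 ± 0.12). Culture 4 was lowest under both conditions.

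The ER stress response element, CCAAT separated by 9 bases from CCACG, is a known binding site of NF-Y with ATF6 or XBP1 and was first described in genes of this kind. Chosen for the search after the counts were seen, it was found in the windows of 9 of 49 genes of the ER list (18.4%), against 19 of 11290 tested genes (0.17%). Of the 9 genes, 8 rose (Hspa5, Hsp90b1, Calr, Canx, Creld2, Dnajc3, Pdia6 and Syvn1), and Derl3 (0.02) did not pass the test. They are given in the direction of the motif, with its fixed letters in capitals: Hspa5 at chr2:34772025-34772043 (plus strand), the 2 elements of Hsp90b1 at chr10:86705638-86705656 (minus strand) and chr10:86705533-86705551 (plus strand), Dnajc3 at chr14:118937827-118937845 (plus strand), Creld2 at chr15:88819520-88819538 (minus strand) and Calr at chr8:84847075-84847093 (plus strand).
Hspa5: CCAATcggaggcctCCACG
Hsp90b1, first: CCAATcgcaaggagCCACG
Hsp90b1, second: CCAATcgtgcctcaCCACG
Dnajc3: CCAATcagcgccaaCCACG
Creld2: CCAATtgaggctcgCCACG
Calr: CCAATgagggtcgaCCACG

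The secretory pathway beyond the ER lumen rose as well. Of 80 genes of the translocon, COPII and COPI coats and golgi, 55 rose (68.8%) and 7 fell, with a median of 0.28 (0.26 to 0.32 in the single cultures). The COPII coat gene Sec23b stood at 92.7, 99.0, 93.2 and 83.7 CPM at 24 h, against 50.4, 51.6, 46.4 and 48.0 CPM in control (0.91 ± 0.05). Sec24d (0.90 ± 0.08), another coat gene, and Sec11c (1 ± 0.08), a signal peptidase subunit, rose by similar amounts. Nuclear transport genes rose in 28 of 60 cases (46.7%) and fell in 5, led by the pore gene Nup93 (0.91 ± 0.08), the Ran exchange factor gene Rcc1 (0.85) and the exportin gene Xpo1 (0.61 ± 0.05).

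Protein turnover divided between the proteasome and the lysosome. Proteasome subunits and assembly factors rose in 29 of 46 cases (63%) and fell in 1, with a median of 0.23. The regulatory subunit gene Psmd12 stood at 129, 136, 129 and 131 CPM at 24 h, against 102, 97.5, 88.8 and 95.1 CPM in control (0.46 ± 0.05). Lysosome and autophagy genes fell more often than they rose, with 21 of 81 higher (25.9%) and 30 lower (37.0%) (22 each with DESeq2), although the lysosomal regulator gene Mitf (1.89 ± 0.12) and the protease gene Ctsc (1.63 ± 0.26) rose. Ubiquitin ligases and adaptors, with 19 of 91 higher and 29 lower, stood near the shares of all genes.

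**Figure D5:**
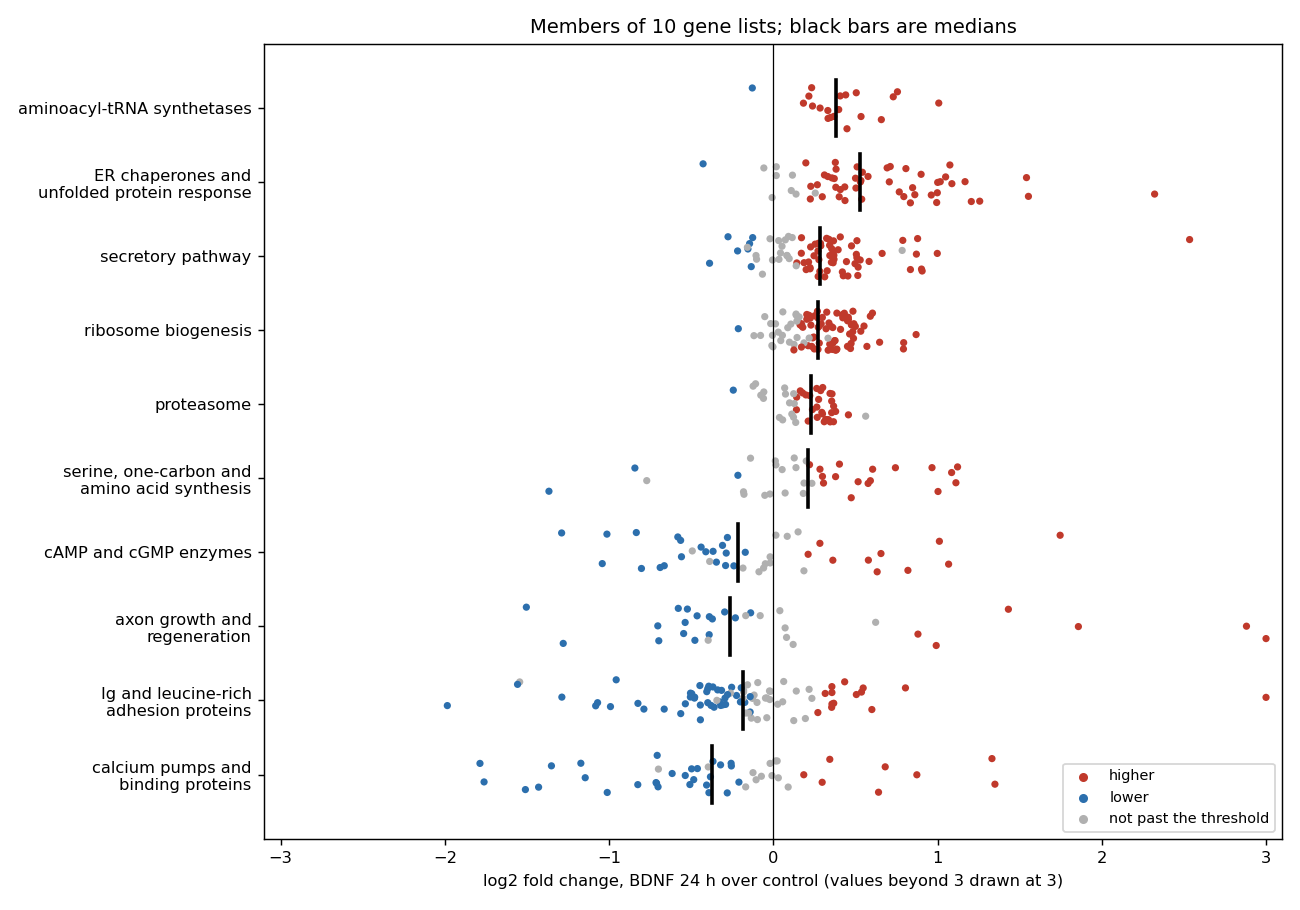
Log2 fold change of each tested member of 10 lists, with medians as black bars; values beyond 3, Galr1 and Sele, are drawn at 3. The members of the upper 6 lists lie mostly to the right of 0 (medians 0.21 to 0.53), and those of the lower 4 lists mostly to the left (medians -0.38 to -0.19).

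Transcripts of a glucose transporter and of a hexokinase rose. Slc2a1, the glucose transporter, stood at 22.8, 24.2, 31.7 and 20.4 CPM at 24 h, against 6.01, 7.55, 11.1 and 6.85 CPM in control (1.67 ± 0.09, adjusted p = 2.43e-07). Hk2, the inducible hexokinase, rose to 5.76 ± 1.17 CPM at 24 h, against 1.11 ± 0.42 CPM in control (2.40 ± 0.20), and the lactate carrier gene Slc16a1 rose by 0.99 ± 0.05. Of the 44 genes of glycolysis and glucose and lactate transport, 18 rose (40.9%) and 9 fell, but the median was 0.02. Tricarboxylic acid cycle genes rose in 11 of 29 cases (37.9%) and fell in 3, by at most 0.38 for the risers (Ogdh). Mitochondrial dynamics and import genes rose in 22 of 55 cases (40%) and fell in 4, among them the mitophagy kinase gene Pink1 (-0.76 ± 0.05). The secreted glycoprotein genes Stc1 (2.20 ± 0.14) and Stc2 (1.68 ± 0.11), counted here among hypoxia-response genes, rose, while that list as a whole was even, with 10 of 32 higher and 8 lower.

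Several metabolic lists stayed near the background. Cholesterol synthesis genes, with 6 of 30 higher and 6 lower, stood near the share of all genes (40% changed, against 47.1%), and none changed 2-fold. NRF2 targets and glutathione genes had 13 of 67 higher and 16 lower, although heme oxygenase, Hmox1, rose to 27.5 ± 3.31 CPM at 24 h, against 9.34 ± 1.34 CPM in control (1.56 ± 0.08), beside the rise of Akr1b8. Fatty acid and glycerolipid enzymes had 15 of 76 higher and 24 lower, and nucleotide enzymes 13 of 54 higher and 17 lower. The polyamine catabolic enzyme gene Sat1 rose evenly, at 38, 37.7, 37.0 and 37.5 CPM at 24 h, against 16.2, 15.4, 14.6 and 13.4 CPM in control (1.34 ± 0.07).

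Calcium handling genes fell more often than any other list. Of 48 genes of calcium pumps, stores and calcium-binding proteins 28 fell (58.3%, against 24.4% of all genes) and 8 rose (16.7%, against 22.7%). At least 2-fold changes were 8 falls and 2 rises. The median was -0.38, with -0.40 to -0.27 in the single cultures. Hpca, the neuronal calcium sensor hippocalcin, stood at 22.8, 12.6, 11.7 and 25 CPM at 24 h, against 62.2, 38.3, 28.1 and 65.5 CPM in control (-1.43 ± 0.07, adjusted p = 1.51e-07). Cultures 1 and 4 were high under both conditions. The potassium-dependent sodium-calcium exchanger gene Slc24a4 (-1.79 ± 0.10), the calcium-binding protein genes Necab3 (-1.76 ± 0.14) and Cabp7 (-1.51 ± 0.26, overlapping Zmat5 on the opposite strand) and the plasma membrane pump gene Atp2b4 (-1.15) fell with it. A related exchanger went the other way: Slc24a3 stood at 338, 308, 269 and 290 CPM at 24 h, against 127, 116, 107 and 129 CPM in control (1.33 ± 0.05). Kcnip3, a calcium sensor also known as DREAM, rose too (1.35 ± 0.12).

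Second-messenger enzymes leaned downward. Of 42 cyclases, phosphodiesterases and cAMP- and cGMP-dependent kinase genes 20 fell (47.6%) and 10 rose. Adcy1, a calcium-stimulated adenylyl cyclase, stood at 822, 831, 1023 and 764 CPM at 24 h, against 1873, 1880, 1996 and 1365 CPM in control (-1.04 ± 0.06). The natriuretic peptide receptor gene Npr3, counted in this list though its product is not a cyclase, fell by 1.29 ± 0.08 on the log2 scale. Pde1c, a calcium- and calmodulin-activated phosphodiesterase, rose to 47.0 ± 12.7 CPM at 24 h, against 14.3 ± 4.83 CPM in control (1.75 ± 0.09). G-protein subunits and receptor kinases fell in 13 of 35 cases (37.1%) and rose in 4, with Gng7 (-1.10 ± 0.05) and Grk3 (-1.17 ± 0.09) lowest. Phospholipase C, diacylglycerol and PKC genes divided, 14 of 50 higher and 18 lower.

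Cell surface adhesion proteins fell more often than they rose. Of 85 immunoglobulin and leucine-rich adhesion genes 42 fell (49.4%) and 14 rose, with a median of -0.19. Igsf9, an adhesion protein of dendrites, stood at 4.54, 4.63, 3.78 and 4.14 CPM at 24 h, against 17.1, 16.4, 16.3 and 17.8 CPM in control (-1.99 ± 0.10, adjusted p = 1.72e-07). Amigo2 (-1.29 ± 0.15) and the contactin genes Cntn6 (-1.08) and Cntn5 (-0.99) fell also. Tight and gap junction genes fell in 7 of 22 cases (31.8%, against 24.4% of all genes) and rose in 2 (9.1%, against 22.7%). This list changed somewhat less often than all genes (40.9% against 47.1%).

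Cytoskeletal genes changed in both directions. Genes of axon growth fell more often than they rose, with 16 of 30 growth and regeneration genes lower (53.3%) and 6 higher. Stmn1, a microtubule-destabilising protein of growing neurons, stood at 484, 505, 429 and 390 CPM at 24 h, against 1201, 1244, 1023 and 929 CPM in control (-1.28 ± 0.04, adjusted p = 9.7e-09). Tubb3, the neuronal beta-tubulin, fell to 986 ± 52.7 CPM at 24 h, against 1604 ± 33.8 CPM in control (-0.70 ± 0.05). The 3 neurofilament chain genes rose: Nefl stood at 644, 648, 609 and 497 CPM at 24 h, against 227, 246, 245 and 148 CPM in control (1.49 ± 0.06), Nefm rose by 2.04 ± 0.07 and Nefh by 0.85 ± 0.13. Nefm and Nefl overlap on opposite strands in the annotation. Ina, alpha-internexin, which joins these chains in neuronal filaments, fell to 436 ± 59.4 CPM at 24 h, against 580 ± 100 CPM in control (-0.40 ± 0.04, adjusted p = 1.84e-05). Vim (1.51 ± 0.17), an intermediate filament gene of immature cells and glia, and the galectin gene Lgals1 (2.12 ± 0.14) rose, while Prph, peripherin, fell (-1.06 ± 0.11). The 6 rising members of the axon growth list were Galr1, the transcription factor genes Atf3 (2.88 ± 0.11) and Jun (0.99 ± 0.08), which injured neurons are known to induce, the secreted peptide precursor gene Vgf (1.86 ± 0.20), the tubulin gene Tubb6 (1.43 ± 0.15) and the actin regulator gene Cap2 (0.88).

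Extracellular proteases and their inhibitors changed at least 2-fold in 30.2% of cases, against 7.39% of all genes, with 13 higher and 6 lower. At any size 21 of 63 rose (33.3%, against 22.7% of all genes) and 14 fell (22.2%, against 24.4%). Beside Mmp3 and Serpinb2, Plaur, the urokinase receptor, held 119 counts at 24 h and 3 in control, a ratio of 37.8 (12.6 to 186). Mmp10 (124 counts against 4, ratio 29.6, 11.3 to 110) and Mmp13 (94 against 4, ratio 22.4, 8.47 to 84) lie near Mmp3 on chromosome 9 and resemble it in sequence, so how their shared reads were assigned is uncertain. With 2 to 4 counts in control, Mmp3, Plaur, Mmp10 and Mmp13 could pass the low-count filter only through their 24 h libraries. Plau, urokinase, rose (1.17 ± 0.29), with 1.48, 3.69, 3.73 and 1.86 CPM at 24 h, against 0.877, 1.43, 2.65 and 0.341 CPM in control, where the groups overlapped. The 14 genes that fell included Adamts2, Adamts16 (-1.74), Adamts3 (-1.43), Adamts4 (-1.32) and Adamts17 (-0.65), of a family of matrix proteases. Adamts2 stood at 0.879, 0.732, 1.42 and 1.13 CPM at 24 h, against 2.82, 2.72, 3.38 and 6.78 CPM in control (-1.86 ± 0.24). Enzymes that degrade or mature neuropeptides were also divided: Ecel1 (1.99 ± 0.06) and Dpp4 (2.24 ± 0.35) rose, while Mme, Pcsk2 and Ace (-2.12 ± 0.15), the angiotensin-converting enzyme, fell.

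Cytokine and chemokine genes rose in 15 of 35 cases (42.9%) and fell in 5, and 10 rose at least 2-fold (28.6% of the list's tested genes, against 3.99% of all). The most abundant riser was the chemokine gene Cx3cl1, at 313 ± 48.7 CPM at 24 h, against 200 ± 22.1 CPM in control (0.64 ± 0.10). Il17ra, a receptor chain, rose to 12.3 ± 3.19 CPM at 24 h, against 4.11 ± 0.83 CPM in control (1.56 ± 0.12). Il33 and Ccl2 were among the risers of low level. Il33 stood at 1.37, 2.04, 0.621 and 1.09 CPM at 24 h, against 0.439, 0.227, 0.302 and 0.0975 CPM in control (2.28 ± 0.43, adjusted p = 0.0013), and Ccl2 at 0.715, 1.15, 0.569 and 0.634 CPM at 24 h, against 0, 0.0454, 0.422 and 0.0488 CPM in control. Interferon-related and GIMAP genes rose in 10 of 40 cases (25%, against 22.7% of all genes) and fell in 3. The list changed less often than all genes (32.5% against 47.1%), while 8 members were at least 2-fold higher (20%, against 3.99%). Of these, Ifi209, Ifi204, Irf8 and Ifi203 (3.28 ± 0.43) averaged 0.01 to 0.20 CPM in control and entered the test through their 24 h libraries. Another was B2m, the invariant chain of class I molecules, at 24.1 ± 5.33 CPM at 24 h, against 11.5 ± 0.94 CPM in control (1.05 ± 0.12). Ifi203 overlaps Mndal on the same strand. Members of the Ifi200 and Gimap families resemble each other in sequence, so their values are uncertain where reads are shared, and 27 genes of the list did not pass the test. Casp1, the inflammatory caspase, rose to 2.17 ± 0.23 CPM at 24 h, against 0.40 ± 0.23 CPM in control (2.48 ± 0.32).

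Markers of microglia and macrophages summed to 15.2 to 24.8 CPM at 24 h and 4.41 to 8.81 CPM in control. This sum was mostly Cd68, a lysosomal membrane protein, at 13.5 to 22.9 CPM at 24 h and 2.68 to 7.15 CPM in control. The defining markers Cx3cr1, P2ry12, Tmem119, C1qa, C1qb, C1qc, Ptprc and Itgam lay at or below 0.536 CPM in all 8 libraries and were too low to be tested. Csf1r rose (1.94 ± 0.72), with a highest control level of 0.392 CPM, and Aif1 (-0.14 ± 0.34) did not pass the test. Meningeal fibroblast markers summed to 15.2 to 22.5 CPM at 24 h and 29.5 to 49.7 CPM in control, mostly by Dcn (-1.39 ± 0.07). The part of such cells in the changes of immune and matrix genes was not tested.

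Neurotrophin genes changed in opposite directions. Ntf3 fell as described. Bdnf itself rose, and stood at 67.2, 104, 122 and 78.6 CPM at 24 h, against 55.0, 65.7, 100 and 29.1 CPM in control, higher in each culture but overlapping between groups (0.66 ± 0.15, adjusted p = 0.0040). Without a term for the culture it did not pass the test, with adjusted p of 0.199 over the 8 libraries and 0.204 over all 24. Its receptor gene Ntrk2 fell to 409, 419, 461 and 447 CPM at 24 h, against 711, 806, 776 and 636 CPM in control (-0.75 ± 0.06, adjusted p = 3.62e-06). The sorting receptor gene Sorl1 rose (0.77 ± 0.05), and Ntrk3 (-0.07 ± 0.07) did not pass the test. Hist2h2be, the H2BE gene that the other genotype lacks, stood at 3.46, 3.45, 3.26 and 3.35 CPM at 24 h, against 4.95, 5.04, 4.89 and 6.04 CPM in control (-0.63 ± 0.14, adjusted p = 0.0031). It belongs to a family of near-identical histone genes, so its counts are uncertain.

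Receptors and ligands of other growth factors showed no common direction. FGF ligands and receptors had 4 of 17 higher and 4 lower, with Fgfr1 rising to 84.9 ± 22.8 CPM at 24 h, against 35.0 ± 4.95 CPM in control (1.24 ± 0.09). In the insulin pathway the receptor gene Igf1r fell (-0.88 ± 0.11) and the adaptor gene Irs2 rose (0.89 ± 0.09). Of TGF-beta and BMP genes 8 of 28 rose and 4 fell, with Ltbp1 (2.37 ± 0.18), Tgfb2 (1.17 ± 0.09) and Tgfbr2 (1.24 ± 0.18) among the risers. Met, the hepatocyte growth factor receptor, fell (-1.05 ± 0.08), and Vegfa rose (0.82 ± 0.07). Tnfrsf12a, the receptor of TWEAK, stood at 21.0, 20.6, 20.8 and 17.7 CPM at 24 h, against 3.23, 3.70, 4.86 and 2.80 CPM in control (2.48 ± 0.12), while 28.9% of the TNF and NF-kappaB list changed, against 47.1% of all genes.

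Purine signalling, transmitter and nuclear receptor genes held some of the remaining large changes. Adenosine and nucleotide receptors and ectoenzymes fell in 12 of 29 cases (41.4%, against 24.4% of all genes) and rose in 5 (17.2%, against 22.7%). Ada stood at 0.577, 0.628, 0.544 and 0.702 CPM at 24 h, against 4.82, 4.97, 3.44 and 2.97 CPM in control. Of the glutamate transporter genes of synaptic vesicles Slc17a6 and Slc17a8 (1.21 ± 0.29, higher in 3 of 4 cultures) rose and Slc17a7 fell. Slc17a6 rose to 102 ± 34.3 CPM at 24 h, against 45.5 ± 13.6 CPM in control (1.16 ± 0.05), and Slc17a7 fell to 248 ± 65.2 CPM at 24 h, against 395 ± 79.5 CPM in control (-0.69 ± 0.05). In Slc17a6 and Slc17a7 the groups overlapped, and all 4 cultures moved in the same direction. Estrogen receptor genes rose, Esr1 to 15 ± 9.14 CPM at 24 h, against 4.69 ± 1.5 CPM in control (1.56 ± 0.17), and Esr2 to 2.20 ± 0.49 CPM at 24 h, against 0.14 ± 0.14 CPM in control (3.97 ± 0.46). Clock genes changed in 19 of 25 cases (76%, against 47.1% of all genes). Of these 12 were higher (48%, against 22.7%) and 7 lower (28%, against 24.4%). Cry1 rose (0.92 ± 0.07) and the clock output gene Hlf fell (-1.58 ± 0.09). Cdkn1a, the cell cycle inhibitor p21, rose to 205 ± 23.6 CPM at 24 h, against 75 ± 6.39 CPM in control (1.45 ± 0.05), and the pro-apoptotic genes Bmf (-1.27 ± 0.22) and Bok (-1.22 ± 0.11) fell. Cell cycle genes as a list changed in 23 of 58 cases (39.7%, against 47.1% of all genes).

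Markers of neuronal identity changed unevenly. Among the 11 markers of the glutamatergic list 2 rose (Slc17a6 and Map2, 0.30) and 8 fell, including Camk2a (-0.90), Neurod2 (-0.85), Rbfox3 (-1) and Emx1 (-1.42). Map2, Tubb3 and Rbfox3 in this list are expressed by neurons in general. Rbfox3, whose product is the antigen NeuN, stood at 43.6, 39.8, 35.4 and 52.4 CPM at 24 h, against 100, 73.5, 74.1 and 95.2 CPM in control. Among GABAergic markers Gad1 (0.33), Gad2 (0.53), Npy and Vip (1.22) rose, Dlx6 fell (-0.53), and Sst (-0.11), Lhx6 (-0.18) and Slc32a1 (0.00) did not pass the test.

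Levels after 30 min of BDNF in the same 4 cultures place some of these changes in time, on one scale for the 12 WT libraries and with control, 30 min and 24 h in that order. Atf3 stood at 4.54 ± 1.52, 18.6 ± 2.61 and 33.4 ± 6.72 CPM (SD, n = 4 each). Vgf stood at 169 ± 85.5, 310 ± 116 and 586 ± 124 CPM, and Ptgs2 at 0.31 ± 0.36, 1.18 ± 0.42 and 7.60 ± 3.4 CPM. For these genes the 30 min mean lay between the others. Hk2 (1.09 ± 0.42, 1.16 ± 0.31 and 5.79 ± 1.18 CPM), Tars (62.2 ± 3.06, 65.9 ± 6.14 and 127 ± 6.81 CPM), Stc1 (14.7 ± 2.43, 13.9 ± 3.88 and 72.2 ± 28.7 CPM), Ntf3 (4.82 ± 1.02, 5.40 ± 1.21 and 0.39 ± 0.16 CPM) and Vcan (140 ± 18.2, 144 ± 14.8 and 28.7 ± 2.88 CPM) had 30 min means that differed from control by less than 1 SD of the 30 min libraries. That SD includes differences between cultures, so it does not show whether the cultures moved together at 30 min. Both time points share the control libraries, and no test was made between the time points.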

How the data were processed

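Polyadenylated RNA of WT cortical neurons was sequenced after 24 h of BDNF and in control. The authors deposited raw read counts per gene for 24 libraries, per the labels. Per the submitters' processing notes the tools included STAR 2.7.9a, DESeq2 1.38.3, limma 3.54.2 and edgeR 3.40.2, with the mm10 build. The labels state neither the counter and its strand setting nor the release of the annotation. Of 45792 gene IDs 45229 (98.8%) were matched to a symbol, and the 563 without one held 0.07% of the counts.

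Groups and culture codes came from the labels. The main test was edgeR 4.0.16 (R 4.3.3), quasi-likelihood, on the 8 libraries with terms for culture and treatment, TMM scaling (factors 0.972 to 1.03) and filterByExpr (minimum count 10, minimum total 15). Of the genes 15306 were tested and 30486 were too low. The culture term follows the shared culture codes in the descriptions, and the deviations of same-culture libraries correlated at 0.243 to 0.506. The biological coefficient of variation was 8.6%, with 3 residual degrees of freedom before moderation. CPM are counts over the scaled library size. On simulated data with 15129 genes tested, 75.8% of 66 changes of 1.5-fold, 93.8% of 64 of 2-fold and 100% of 65 of 4-fold were recovered. Among 14934 unchanged genes 9 were false calls. Far fewer genes were changed there than were called here, so these rates may not hold for this comparison.

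Named genes were the 15 largest rises and 15 largest falls with a mean of at least 1 CPM, an official symbol and groups that do not overlap, then up to 2 per list under the same conditions (3 in lists with at least 8 such genes), and Ntrk2, Bdnf and Hist2h2be. Other list members are named where a sentence turns on them. The comparison, the lists and the rule were chosen with earlier results of these data known. Promoter windows are RefSeq sequence (GRCm38.p6), matched by symbol or ID for 11290 of the tested genes. Intervals of count ratios are exact at 95% and cover counting error only. Alternatives were other normalisations (RLE, upper quartile), low-count filters, tools (DESeq2 1.42.0, limma 3.58.1 voom), sets of libraries, the fit without the culture term, and each culture left out. Results for some genes are not reported here.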

Additional observations from a re-analysis of the deposited data

Results flagged for a closer look

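For the named genes, a library was singled out where its gap to the nearest of the other 3 libraries of its group, divided by the group's range, exceeded Dixon's 95% critical value. This held in 20 of 314 groups of 4, and chance gives about 1 in 20.

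Among BDNF 24 h libraries, culture 4 was lower than the others for Tnfrsf12a at 17.7 CPM, Ddx21 at 54.6 CPM, Polr1e at 15.7 CPM and Psmc2 at 131 CPM. Culture 1 stood apart for Pdia5 at 9.76 CPM and Sec11c at 82.6 CPM, culture 2 for Srxn1 at 93.2 CPM and culture 3 for Esr2 at 2.92 CPM.

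Among control libraries, culture 4 stood apart for Fbxo32 at 1.32 CPM, Ypel1 at 95.9 CPM, Adamts2 at 6.78 CPM, Slc16a6 at 21.3 CPM, Hif3a at 4.00 CPM, Psmd14 at 94.8 CPM, Nup93 at 19.4 CPM, Hspa9 at 260.0 CPM and Hist2h2be at 6.04 CPM. Culture 3 stood apart for Lce1g at 0.784 CPM and Pcsk2 at 219 CPM, and culture 2 for Mmp3 at 0.0454 CPM, the single control library with counts of that gene. In 13 of the 20 groups the library was that of culture 4.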

How the results depend on the processing

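The count of 7216 changed genes rests on pairing the libraries by culture. Without the replicate block it was 4945 (2409 higher, 2536 lower), and 68.4% of the calls of the paired fit were shared. With all 24 libraries and no replicate block it was 3133 (1602 higher, 1531 lower), with 331 genes at least 2-fold lower and 650 called list genes in place of 1319. Library set 2 alone gave 4178 (2115 higher, 2063 lower) and 861 list genes, and a filter of 1 CPM left 344 genes at least 2-fold lower. Leaving out each culture in turn gave 5780 to 6741 changed genes (2830 to 3332 higher, 2950 to 3409 lower), 536 to 631 at least 2-fold higher, 452 to 509 at least 2-fold lower, and 1113 to 1255 list genes. The other alternatives gave 5298 to 7669 changed genes. The share of calls that were higher was 43.0% with upper-quartile factors and 52.5% with the 12 WT libraries. Of the 7216 genes called, 1 changed sign, in library set 2 alone, and none in the other alternatives.

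Of the 155 named genes 139 passed the test in all 16 alternatives, among them the 30 largest changes. Bdnf was lost in both fits without the block, Hist2h2be in library set 1 alone, and Slc1a5 with all 24 libraries and no block. Bmf and Slc7a2 were lost in library set 2 alone. The lists for neurotrophin, FGF, insulin, TNF, NRF2, cholesterol, cell cycle, fatty acid, nuclear receptor and PKC genes, among others, changed their balance of higher against lower calls in at least 1 alternative. The causes were not tested. Genes below about 1 CPM rest on few counts, and 988 long noncoding genes and close paralogs depend on the authors' read assignment.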
